A study of Mus musculus with 9 samples.

Results

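Liver blood runs through sinusoids, capillaries whose endothelial cells have open pores, lack a basement membrane and clear waste molecules from the blood with scavenger receptors. Genes of these cells were set apart from genes that endothelial cells of vessels in general express, and 33 such genes were followed, chosen by symbol from the 57010 genes of the deposited tables. Of the 33, 13 are sinusoid-enriched (Stab1, Stab2, Dnase1l3, Flt4, Lyve1, Clec4g, Fcgr2b, Oit3, Ehd3, Gpr182, Mrc1, Bmp2 and Gata4) and 20 are pan-endothelial or vessel genes. All 33 passed the filter on low counts.

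The libraries are from whole liver of male BALB/c mice, an inbred strain, with 3 libraries in each of 3 groups. Livers of the AT3 group are labelled as acutely injured with cisplatin, a chemotherapy compound containing platinum that damages DNA. The labels do not say what AT3 stands for; atractylenolide III, a sesquiterpenoid from Atractylodes plants, is in the title of the series. The CPT group has the same injury label, and the CON group had no treatment. No dose, route, time or age is given in the sources used here. Whether the 3 libraries of a group came from different mice is not stated either, so the p-values speak only of the spread among these libraries, which may be technical.

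Sinusoidal endothelial cells take up hyaluronan, immune complexes and oxidised or glycosylated proteins through stabilins, lectins and an Fc receptor. Their growth and survival depend on VEGF receptors and on the TIE receptors for angiopoietins, and cadherins, claudins and other adhesion molecules hold endothelial cells to each other. Transcription factors of the ETS, SOX and GATA families set endothelial identity, and GATA4 is known in mice to set the sinusoidal kind.

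The proximal promoters of 4 members are shown because ETS factors, among them the member Erg, are known regulators of endothelial genes and because they hold both members that fell in CPT (Tie1, Clec4g and Stab2) and 1 that was not called (Stab1). The sequences are RefSeq's for GRCm38.p6, run 5′ to 3′ on the gene's strand from 250 bases before to 50 bases after the start, and have the ETS core letters in capitals (AGGAAG or CGGAAG, on either strand, so also CTTCCT or CTTCCG). They lie at chr4:118489800-118490099 (Tie1), chr8:3720602-3720901 (Clec4g), chr10:87007893-87008192 (Stab2) and chr14:31168592-31168891 (Stab1), all on the minus strand.
Tie1: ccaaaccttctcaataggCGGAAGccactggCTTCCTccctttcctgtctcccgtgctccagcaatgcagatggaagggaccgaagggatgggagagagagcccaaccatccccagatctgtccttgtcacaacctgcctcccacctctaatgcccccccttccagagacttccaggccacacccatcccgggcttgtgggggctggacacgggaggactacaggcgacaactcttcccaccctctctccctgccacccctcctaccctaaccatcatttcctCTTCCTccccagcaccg
Clec4g: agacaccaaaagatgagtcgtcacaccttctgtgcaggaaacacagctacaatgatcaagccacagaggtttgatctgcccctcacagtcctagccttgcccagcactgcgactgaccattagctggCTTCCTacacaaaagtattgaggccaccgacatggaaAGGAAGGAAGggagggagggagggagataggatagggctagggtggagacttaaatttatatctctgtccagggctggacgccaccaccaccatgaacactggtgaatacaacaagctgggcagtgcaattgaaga
Stab2: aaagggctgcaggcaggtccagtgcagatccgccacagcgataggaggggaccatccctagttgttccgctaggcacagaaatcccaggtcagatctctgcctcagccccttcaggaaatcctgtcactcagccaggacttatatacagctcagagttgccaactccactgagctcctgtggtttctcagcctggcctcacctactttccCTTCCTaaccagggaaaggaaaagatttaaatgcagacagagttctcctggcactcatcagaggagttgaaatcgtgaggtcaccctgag
Stab1: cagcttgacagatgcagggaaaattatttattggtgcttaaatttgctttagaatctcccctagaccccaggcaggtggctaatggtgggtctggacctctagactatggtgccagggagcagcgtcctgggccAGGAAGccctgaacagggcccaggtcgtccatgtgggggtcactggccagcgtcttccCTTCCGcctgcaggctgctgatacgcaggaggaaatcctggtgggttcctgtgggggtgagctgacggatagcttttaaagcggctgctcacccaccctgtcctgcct
RefSeq promoter entries were matched for 19 of the 33 symbols, with 23 promoters in all. The ETS letters were in 15 of the 23, against 46.5% of 32851 mouse promoters of the same length. By symbol they were in 14 of 19, the 4 shown among them. Fcgr2b, Tek, Kdr, Flt4 and Cldn5, which also fell in CPT, had none. The GATA letters AGATAA, searched on both strands, were in 2 of the 23, in Tek and in 1 of the Erg promoters, against 11.2% of all promoters. A match describes letters only.

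Library totals were 21485021 to 28480479 estimated counts, and 13686 genes were tested. Mitochondrially encoded and globin genes, 9 genes in all, summed to 71200 to 89700 CPM in AT3, 82900 to 125000 CPM in CPT and 215000 to 406000 CPM in CON. CPM here is a count over the TMM-scaled library total, on a common total for all libraries; TMM sets libraries level on the bulk of genes, and the member calls against CON were the same when the mitochondrial and 10 most abundant genes were left out. The erythrocyte gene Hba-a2, which can share reads with Hba-a1, averaged 1.72 CPM in AT3, 0.940 CPM in CPT and 338 CPM in CON, so less red cell RNA was measured in the livers of both injury groups. The part of blood content in the endothelial results was not tested. Within AT3, replicate 2 stood apart for these genes: it was the highest AT3 library for 28 of 33 members, and replicate 1 the lowest for 24. The median SD of log2 CPM over the 33 members was 0.44 in AT3, 0.34 in CPT and 0.12 in CON, beside 0.13, 0.20 and 0.19 for the same groups over all genes tested.

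Endothelial transcripts took a far smaller share of the RNA in cisplatin-injured than in untreated livers. In CPT against CON, 31 of the 33 members fell, 0 rose and 2 (Stab1 and Lyve1) were not called, by edgeR's quasi-likelihood test at an adjusted p under 0.05. Over all genes, 60.8% were called, 30.8% lower and 30.0% higher. The 31 include 29 with a log2 fold change of -1 or below and 23 of -2 or below, beside 16.0% and 5.52% of all genes. The median log2 fold change of the 33 was -2.50, against -0.02 over all genes tested. In CPM, the CPT libraries lay wholly below the CON libraries for 31 members, and 32.7% of all genes did so, while 31.5% lay wholly above. Fits to the authors' TPM with limma on log2(TPM + 1) called 27 members, all lower, while all genes split into 6579 higher and 1609 lower there, beside 4107 and 4219 on counts. In whole liver, fewer endothelial cells and less RNA per cell cannot be told apart.

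Sinusoid-enriched and pan-endothelial genes had medians close to each other, and the difference between them was not tested. Of the 13 sinusoid-enriched genes 11 fell, with a median log2 fold change of -2.59 over all 13. Of the 20 pan-endothelial and vessel genes 20 fell, with a median of -2.39. The summed level of the sinusoid-enriched genes was 41.9, 33.4 and 36.7 CPM in CPT, against 160, 166 and 157 CPM in CON. The pan-endothelial sum was 69.0, 68.8 and 85.2 CPM in CPT, against 205, 204 and 211 CPM in CON. Both sums separated the groups without overlap, and the CON libraries lay close to each other. A few genes weighed heavily in the CPT sums. Nrp1 and Plvap averaged 33 and 15.7 CPM of a mean pan-endothelial sum of 74.3 CPM. Stab1 averaged 12 CPM of a mean sinusoid-enriched sum of 37.3 CPM.

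**Figure D1:**
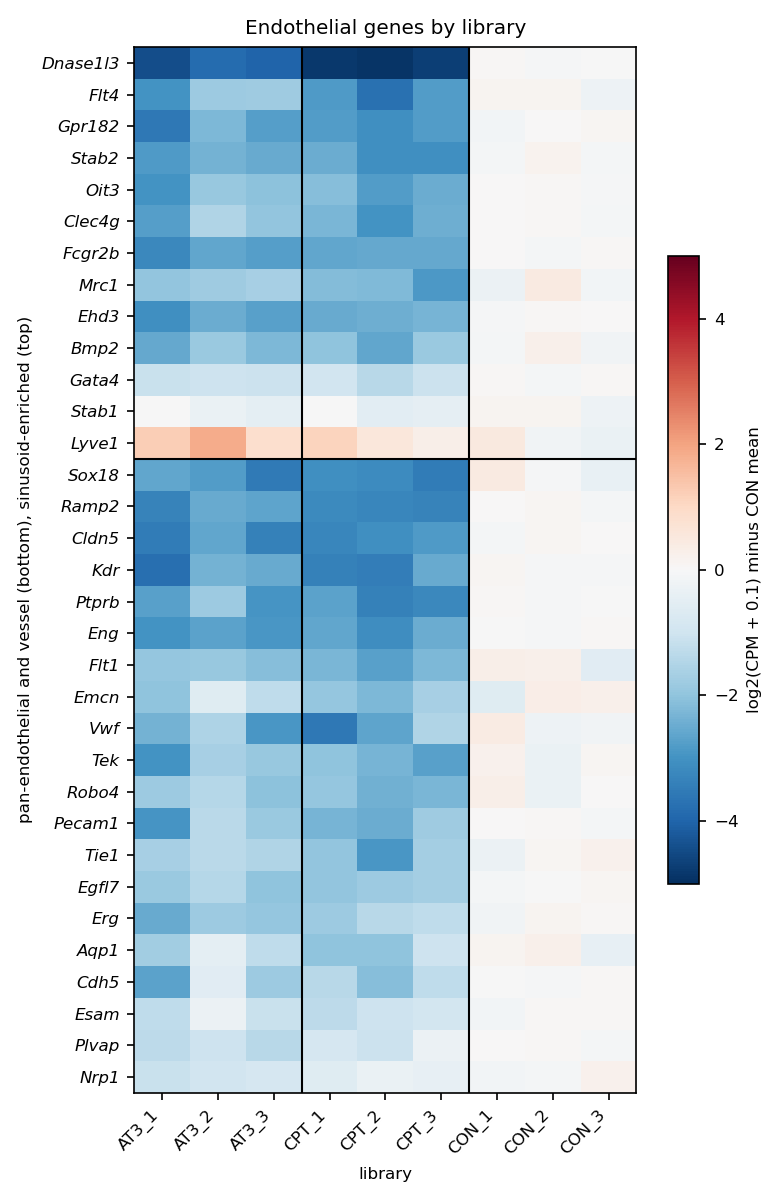
Heat map of the 33 genes in the 9 libraries, with AT3, CPT and CON from left to right. Colour is log2(CPM + 0.1) minus the CON mean of the gene, with sinusoid-enriched genes above the horizontal line and pan-endothelial genes below it. Most AT3 and CPT cells are blue, Lyve1 is red, and Stab1 stays near the CON mean.

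The secreted nuclease gene Dnase1l3 (chr14:7964533-7994573, minus strand, GENCODE M21 on GRCm38) had the largest fall of the 33. It had 0.820, 1.28 and 1.15 CPM in AT3, 0.601, 0.560 and 0.654 CPM in CPT, and 20.5, 19.3 and 19.8 CPM in CON. The 3 groups did not overlap, and CPT was lowest. In CPT against CON the log2 fold change was -5.03 ± 0.17 (SE, adjusted p = 3.82e-12 by edgeR's quasi-likelihood test), a 32.7-fold lower level. DNASE1L3 is known for digesting chromatin released by dying cells.

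Stabilin 2 (Stab2, chr10:86841198-87008025, minus strand), the hyaluronan and scavenger receptor of sinusoids, fell as well. Its level was 1.51, 2.16 and 1.93 CPM in AT3, 1.94, 1.28 and 1.27 CPM in CPT, and 10.7, 13.0 and 10.7 CPM in CON. AT3 and CPT overlapped, and both lay below every CON library. The log2 fold change was -2.94 ± 0.19 in CPT against CON (SE, adjusted p = 4.59e-09 by edgeR's quasi-likelihood test).

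Other uptake receptors of the sinusoid gave similar values. The inhibitory IgG receptor Fcgr2b, which holds immune complexes, averaged 4.75 ± 0.0489 CPM in CPT and 28.8 ± 1.74 CPM in CON (SD, n = 3 each). The lectin gene Clec4g (LSECtin) averaged 1.49 ± 0.387 CPM in CPT and 9.08 ± 0.468 CPM in CON, and the mannose receptor gene Mrc1 1.40 ± 0.382 CPM in CPT and 7.95 ± 2.26 CPM in CON. Their log2 fold changes lay between -2.61 and -2.50, and none of the 3 had overlapping groups. Ehd3, a gene of endosome recycling, was at 5.72, 6.04 and 6.69 CPM in CPT, against 32.4, 34.8 and 33.6 CPM in CON. Gpr182, a scavenging chemokine receptor, and Oit3, a sinusoidal marker, fell with log2 fold changes of -2.98 ± 0.26 and -2.61 ± 0.31 (SE).

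A ligand and a transcription factor among the sinusoid-enriched genes also fell. Bmp2, a ligand by which sinusoidal cells drive hepcidin in hepatocytes in mice, averaged 0.780 ± 0.224 CPM in CPT and 3.78 ± 0.613 CPM in CON (SD, n = 3 each), a log2 fold change of -2.29 ± 0.29 (SE). Gata4 averaged 5.51 ± 0.821 CPM in CPT and 12.3 ± 0.847 CPM in CON, a log2 fold change of -1.16 ± 0.13 (SE). Stellate cells also express Gata4.

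Stabilin 1 (Stab1, chr14:31139013-31168641, minus strand) was the clearest case where the 2 deposited units part. Its estimated counts gave 14.7, 11.7 and 10.5 CPM in AT3, 14.6, 10.4 and 10.9 CPM in CPT, and 16.3, 16.4 and 12.4 CPM in CON, so the groups overlapped. In CPT against CON the log2 fold change was -0.33 ± 0.16 (SE, adjusted p = 0.0803 by edgeR's quasi-likelihood test). That rested on single libraries, since without CPT replicate 1 or CON replicate 3 Stab1 was called lower, at -0.44 each time (adjusted p = 0.024 and 0.0325). The authors' TPM were 9.20, 6.77 and 9.55 in AT3, 9.16, 5.91 and 11.1 in CPT, and 18.4, 16.5 and 17.7 in CON. On that scale both injury groups lay below every CON library, and limma on log2(TPM + 1) gave -0.97 in CPT against CON (adjusted p = 0.00259).

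The 2 units of Stab1 are tied by the effective length used for TPM, which was recovered as counts per TPM, scaled in each library so that well-measured genes had a median ratio of 1 to their deposited length. It was 1780 ± 474 bases in AT3, 1620 ± 453 in CPT and 652 ± 214 in CON (SD, n = 3 each), whereas the deposited gene length is 7999 bases. GENCODE M21 lists 13 Stab1 transcripts of 242 to 7999 bases, 6 of them under 1000. The deposited tables hold gene sums only, so which transcripts the counts came from was not tested. Each AT3 and CPT library lay above every CON library for Stab1. For Vwf, the clotting factor carrier, the length was 3177, 667 and 3433 bases in AT3, 2811, 776 and 2932 in CPT, and 794, 881 and 666 in CON. Replicate 2 of AT3 and of CPT lay within the CON range, and Vwf fell on both scales.

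**Figure D2:**
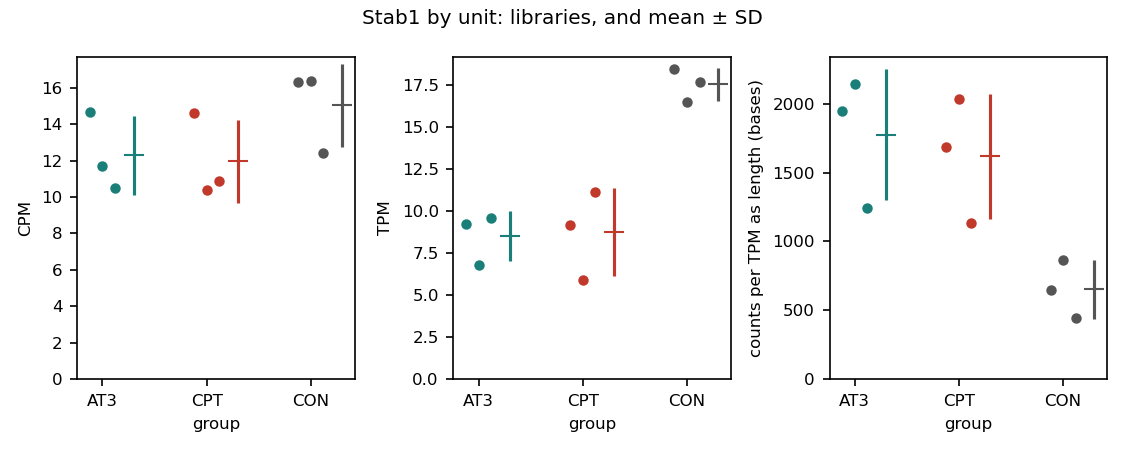
Stab1 in 3 units, with CPM, TPM and the length in bases recovered from counts and TPM on the 3 vertical axes. Points are libraries and crosses with bars are mean ± SD in AT3, CPT and CON. CPM overlaps between groups, TPM is highest in CON, and the recovered length is lowest in CON.

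Lyve1, the hyaluronan receptor of sinusoidal and lymphatic endothelium and of some macrophages, went the other way. It had 36, 61 and 25 estimated counts in AT3, 31, 23 and 15 in CPT, and 12, 10 and 6 in CON. In CPT against CON the log2 fold change was 0.78 ± 0.44 (SE, adjusted p = 0.138 by edgeR's quasi-likelihood test), and the CPM of the groups overlapped. In TPM it had 0.35, 0.25 and 0.20 in CPT, against 0.15, 0.10 and 0.07 in CON, without overlap. Limma called it higher on log2(TPM + 0.1), at 0.82 (adjusted p = 0.049), and not on log2(TPM + 1), at 0.19 (adjusted p = 0.13). In AT3 against CON it rose, with a log2 fold change of 1.52 ± 0.42 (SE, adjusted p = 0.00515), and the groups did not overlap. In TPM, a level per length, Lyve1 ranked 33 of 33 members in CON, at 0.107, and 18 of 33 in AT3, at 0.490.

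The receptors for VEGF fell in CPT, with Nrp1 far less than the others. Kdr, the main signalling VEGF receptor, had 0.361, 1.10 and 1.0 CPM in AT3, 0.495, 0.467 and 1.0 CPM in CPT, and 6.63, 5.93 and 5.91 CPM in CON. Both injury groups lay below every CON library, and the log2 fold change in CPT against CON was -3.25 ± 0.34 (SE). Flt4, the receptor for VEGFC and VEGFD, changed by -3.29 ± 0.35 in CPT against CON and Flt1, which binds VEGFA and acts partly as a decoy, by -2.64 ± 0.31. The co-receptor Nrp1, which also binds semaphorins, had 29.5, 35.7 and 33.8 CPM in CPT, against 41.1, 42.5 and 52.9 CPM in CON. Its log2 fold change was -0.46 ± 0.12 (SE, adjusted p = 0.00312 by edgeR's quasi-likelihood test), whereas on the TPM scale it was 0.13 (limma adjusted p = 0.453), with overlapping groups. The direction of Nrp1 in CPT therefore depended on the scaling.

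The angiopoietin receptor genes Tek (TIE2) and Tie1 fell by 2.44 ± 0.33 and 2.25 ± 0.28 on the log2 scale (SE). Ptprb, the phosphatase VE-PTP that restrains TIE2, had 1.63, 0.965 and 1.08 CPM in CPT, against 11.6, 10.6 and 10.9 CPM in CON, a log2 fold change of -3.17 ± 0.26. Endoglin (Eng), the co-receptor for BMP9 and BMP10, averaged 6.75 ± 1.49 CPM in CPT and 44.4 ± 1.69 CPM in CON (SD, n = 3 each). In CPM, CPT and CON did not overlap for any of these 4 genes.

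Junction and adhesion genes spread over a wide range. Claudin 5 (Cldn5), a tight junction protein, had 0.283, 0.342 and 0.423 CPM in CPT, against 3.32, 3.85 and 3.60 CPM in CON. Its log2 fold change of -3.35 ± 0.33 (SE) was the largest of the junction genes. VE-cadherin (Cdh5), the adherens junction protein of endothelium, had 1.94, 1.15 and 2.11 CPM in CPT, against 5.23, 5.10 and 5.57 CPM in CON. It fell by 1.62 ± 0.38 (SE, adjusted p = 0.00192 by edgeR's quasi-likelihood test). The adhesion genes Pecam1 and Esam changed by -2.25 ± 0.30 and -1.12 ± 0.24, and the sialomucin gene Emcn by -2.60 ± 0.56 on 3 to 5 estimated counts a library in CPT. Robo4, a guidance receptor that steadies vessels, changed by -2.33 ± 0.27, and Egfl7, a secreted vessel matrix protein, by -1.86 ± 0.16.

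The endothelial transcription factor Sox18 had 4, 4 and 2 estimated counts in CPT, against 47, 46 and 26 in CON, a log2 fold change of -4.04 ± 0.47 (SE). The groups stood far apart, although the CPT counts were few. Erg, an ETS factor that keeps endothelium quiescent, had 8, 13 and 12 estimated counts in CPT, against 19, 35 and 23 in CON, and changed by -1.70 ± 0.39. Ramp2, the partner that makes Calcrl a receptor for adrenomedullin, was at 0.742, 0.685 and 0.654 CPM in CPT, against 7.59, 7.89 and 6.92 CPM in CON. Calcrl itself, which is not among the 33, fell alongside with a log2 fold change of -3.14 ± 0.28. The water channel gene Aqp1, which bile duct cells and red cells also express, changed by -1.69 ± 0.31, and Vwf by -2.54 ± 0.46.

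Plvap, the protein of the diaphragms that close pores in capillarised endothelium, fell least after Nrp1. It had 14.4, 12.1 and 20.7 CPM in CPT, against 25.9, 26.9 and 24 CPM in CON, a log2 fold change of -0.71 ± 0.16 (SE, adjusted p = 0.00116 by edgeR's quasi-likelihood test). CPT replicate 3 was the highest of its group and still below every CON library. On the log2(TPM + 1) scale Plvap was not called, at -0.12 (limma adjusted p = 0.665), and its TPM overlapped. By mean TPM, the order of the members in CPT was led by Nrp1 at 8.98 ± 1.30, Stab1 at 8.72 ± 2.62 and Plvap at 8.18 ± 2.52 (SD, n = 3 each), which overlapped each other. In CON it was led by Stab1 at 17.5 ± 0.993 TPM and Egfl7 at 11.4 ± 1.48 TPM, which did not overlap, with Plvap next at 8.86 ± 1.91 TPM, which overlapped Egfl7. The places of Stab1 and Egfl7 rest on recovered lengths in CON of 652 and 674 bases, against deposited lengths of 7999 and 1388.

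**Figure D3:**
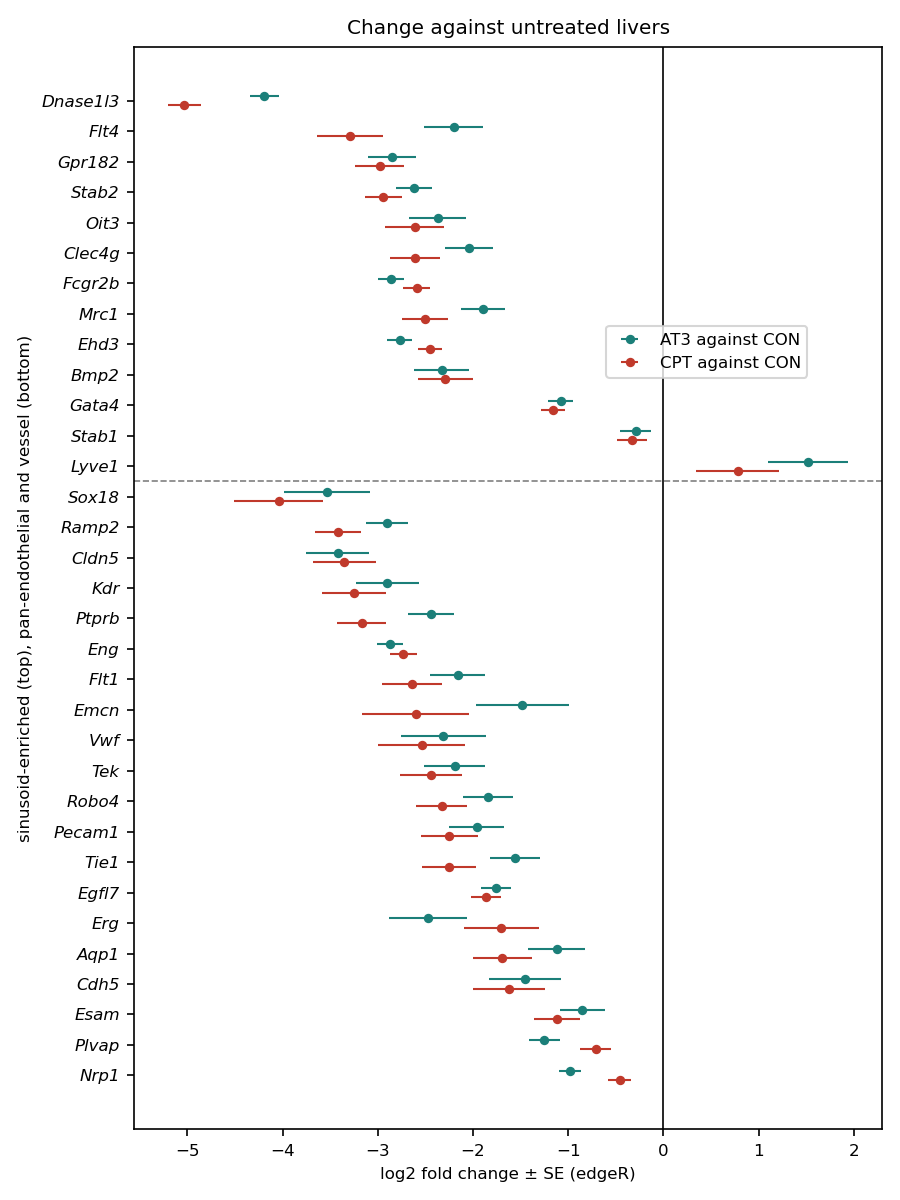
Log2 fold change with SE (horizontal axis, edgeR) of each gene (vertical axis) in AT3 against CON (teal) and CPT against CON (red), with sinusoid-enriched genes above the dashed line. Dnase1l3 is lowest at -4.19 in AT3 and -5.03 in CPT, and Lyve1 alone lies right of 0.

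AT3 livers were low in these genes against CON as well. In AT3 against CON, 31 members fell, Lyve1 rose and Stab1 was not called (log2 fold change -0.29 ± 0.16 (SE), adjusted p = 0.117 by edgeR's quasi-likelihood test). Without AT3 replicate 1 or CON replicate 3 Stab1 was called lower, with adjusted p-values of 0.0424 and 0.0471. Limma on log2(TPM + 1) called 26 members lower, Stab1 among them (-0.97, adjusted p = 0.00216), and Lyve1 higher, and did not call Cdh5, Esam, Robo4, Nrp1, Plvap and Aqp1. Over all genes, 64.4% were called in that comparison, 32.9% lower and 31.5% higher. Of the members 29 were at -1 or below and 19 at -2 or below, beside 17.9% and 7.02% of all genes. In CPM the AT3 libraries lay wholly below CON for 31 members and above for 1, beside 35.9% and 34.5% of all genes. The median log2 fold change was -2.33 for the sinusoid-enriched and -2.06 for the pan-endothelial genes, against -0.04 over all genes tested. Without AT3 replicate 2, these medians were -2.55 and -2.32. AT3 against CON and CPT against CON use the same CON libraries, so their likeness is not independent evidence.

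AT3 and CPT differed little in these genes. In AT3 against CPT, 1 member rose (Dnase1l3), 1 fell (Nrp1) and 31 were not called, so 6.06% of members were called, beside 4.68% of all genes (2.46% higher and 2.22% lower). At an unadjusted p under 0.05 there were 8 members, beside 20.7% of all genes. The groups did not overlap in CPM for 7 members (4 higher and 3 lower), beside 27.0% of all genes (14.5% higher and 12.5% lower). The estimates were positive for 25 members and negative for 8, with medians of 0.24 for the sinusoid-enriched and 0.28 for the pan-endothelial genes, against 0.00 over all genes. Without AT3 replicate 2, 0 members were called by edgeR's quasi-likelihood test and the medians were 0.08 and -0.07. Without CPT replicate 2 they were 0.06 and 0.20, so the size of the medians, and for the pan-endothelial genes the direction, rested on single libraries.

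Dnase1l3 was the member that rose, with the CPM per library given above. AT3 averaged 1.08 ± 0.239 CPM and CPT 0.605 ± 0.0467 CPM (SD, n = 3 each), and the groups did not overlap. The log2 fold change was 0.84 ± 0.22 (SE, adjusted p = 0.0421 by edgeR's quasi-likelihood test), on 25 to 41 estimated counts in AT3 and 17 to 18 in CPT. Leaving out 1 library ended that call for 7 of the 9 libraries, all but AT3 replicate 1 and CPT replicate 3, with adjusted p-values up to 0.177. Both groups stayed far below CON. Nrp1 had 20.6, 23.3 and 25.4 CPM in AT3, against 29.5, 35.7 and 33.8 CPM in CPT. These groups did not overlap in CPM or TPM. The log2 fold change was -0.52 ± 0.12 (SE, adjusted p = 0.0235), and the call was lost without AT3 replicate 1 (0.136), AT3 replicate 2 (0.0887) or CPT replicate 2 (0.103).

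Other members with an unadjusted p under 0.05 did not pass adjustment. Flt4 had 0.591, 1.44 and 1.5 CPM in AT3, against 0.671, 0.311 and 0.692 CPM in CPT, a log2 difference of 1.09 ± 0.38 (SE, adjusted p = 0.112 by edgeR's quasi-likelihood test). AT3 replicate 1 lay within the CPT range. Plvap had 10.3, 12.3 and 9.64 CPM in AT3, against 14.4, 12.1 and 20.7 CPM in CPT, with a log2 difference of -0.54 ± 0.16 (adjusted p = 0.0673). Ptprb, Tie1, Mrc1 and Ehd3 had differences of 0.73, 0.68, 0.61 and -0.32, with adjusted p-values of 0.157 to 0.210. For Cdh5, AT3 replicate 2 was at 3.57 CPM and the other AT3 libraries at 0.755 and 1.43 CPM, against 1.94, 1.15 and 2.11 CPM in CPT, so 1 library set the AT3 mean.

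**Figure D4:**
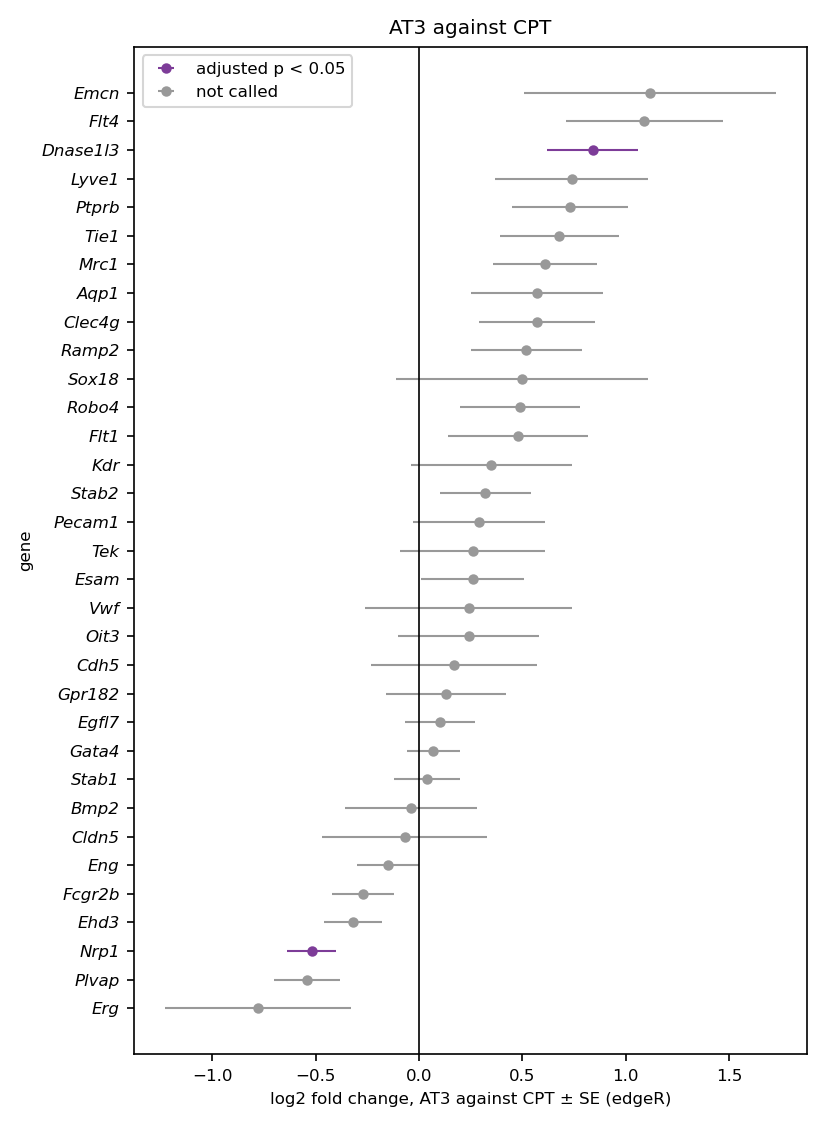
Log2 fold change of AT3 against CPT with SE (horizontal axis, edgeR) for the 33 genes, ordered by size. Purple points have an adjusted p under 0.05, which Dnase1l3 at 0.84 and Nrp1 at -0.52 reached. Grey points were not called.

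Ratios of a sinusoid-enriched to a pan-endothelial gene within a library do not depend on how libraries are scaled. The TPM ratio of Stab2 to Cdh5 was 1.65, 0.958 and 1.29 in AT3, 0.818, 0.897 and 0.491 in CPT, and 1.64, 1.0 and 1.53 in CON. CPT lay below the other groups, with mean log2 differences of -0.93 in CPT against CON and 0.83 in AT3 against CPT. The TPM ratio of Lyve1 to Pecam1 was 1.29, 0.673 and 0.463 in AT3, 0.778, 0.610 and 0.274 in CPT, and 0.0955, 0.0478 and 0.0515 in CON, a mean log2 difference of 3.04 in CPT against CON. The smallest p of a two-sided exact permutation test of 3 against 3 is 0.1, which these 3 differences had, and 0.3 after Benjamini-Hochberg adjustment over 12 ratios and comparisons. On CPM per kb of the deposited length, Stab2 to Cdh5 gave -1.30 in CPT against CON and 0.43 in AT3 against CPT. The second had overlapping groups (exact permutation p = 0.4). For AT3 against CON it was -0.1 in TPM and -0.87 on CPM per kb (exact permutation p = 0.8 and 0.2). Recovered lengths were 2941 bases for Stab2 in AT3 replicate 2 and 2268 for Cdh5 in CON replicate 2. Their means in CPT were 5670 and 4620 bases. The ratios of Tek to Tie1 and of Kdr to Flt1 in TPM had exact permutation p-values of 0.2 to 1.0.

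Genes around the members followed a similar course, with exceptions. Of 19 other zonated endothelial genes tested, 14 fell, 2 rose and 3 were not called in CPT against CON, with a median log2 fold change of -1.80. Over all genes, 30.8% fell and 30.0% rose in that comparison, shares that also apply to the lists below. The central vein Wnt ligand genes Wnt2 and Wnt9b and the Wnt enhancer gene Rspo3, which set hepatocyte zonation, changed by -1.82 ± 0.37, -2.37 ± 0.38 and -1.80 ± 0.28 (SE). The latent TGF-beta binding protein gene Ltbp4 averaged 0.844 CPM in CPT and 16.1 CPM in CON, with a log2 fold change of -4.24 ± 0.20. Cd36, a fatty acid receptor that hepatocytes can also make, rose to 19.4 CPM in CPT, against 2.90 CPM in CON, and thrombomodulin (Thbd), which restrains clotting, rose with a log2 fold change of 1.36 ± 0.46. The CPM of Thbd overlapped between CPT and CON, whereas its TPM did not. None of the 19 was called in AT3 against CPT by edgeR's quasi-likelihood test, and 2 had an unadjusted p under 0.05. Over all genes these shares were 4.68% and 20.7%.

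Several ligands of the member receptors fell, whereas Angpt1 and Angpt2, which encode ligands of TIE2, and Pgf, which encodes a ligand of Flt1, had too few counts to be tested. Of 19 genes of vessel growth factors, BMP signalling and Notch tested, 14 fell, 1 rose (Id1, a target of BMP signalling) and 4 were not called in CPT against CON, with a median of -0.99. Vegfa, the ligand of Kdr and Flt1, averaged 21.1 CPM in CPT and 53.0 CPM in CON, a log2 fold change of -1.33 ± 0.10 (SE). Vegfb, a ligand of Flt1, and Vegfd, a ligand of Flt4, changed by -2.01 ± 0.19 and -2.15 ± 0.39. Vegfc, also a ligand of Flt4, fell less, by 0.84 ± 0.31, and its TPM overlapped between CPT and CON. Gdf2 and Bmp10, which encode the ligands of endoglin, changed by -0.99 ± 0.22 and -1.27 ± 0.33. Hes1, a target of Notch, rose in AT3 against CPT with a log2 fold change of 1.0 ± 0.21 (adjusted p = 0.0159 by edgeR's quasi-likelihood test). It was the 1 call of 19 there, beside 4.68% of all genes.

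Of 18 endothelial transcription factor genes tested, 13 fell and 5 rose in CPT against CON, with a median of -1.20. Maf, a regulator of sinusoidal identity in mice, averaged 3.44 CPM in CPT and 18.9 CPM in CON. The SOX gene Sox17 and the flow-responsive Klf2 changed by -2.82 ± 0.47 and -1.17 ± 0.21 (SE). The 5 that rose were Epas1, Ets2, Klf6, Gata6 and Foxo1, with log2 fold changes of 1.73, 1.67, 1.58, 1.07 and 0.81, and liver cells outside the endothelium can express them. Foxo1 and Epas1 were also higher in AT3 than in CPT, by 0.57 ± 0.10 and 0.45 ± 0.12.

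Of 21 genes of endothelial activation, clotting and vessel tone tested, 15 fell, 3 rose and 3 were not called in CPT against CON, with a median of -1.30. Of the 3 that rose, Icam1 and F11r are described here. The adhesion receptor Icam1 averaged 21.9 CPM in AT3, 39.0 CPM in CPT and 9.40 CPM in CON. It rose in CPT against CON (log2 fold change 2.05 ± 0.13, SE) and fell in AT3 against CPT (-0.83 ± 0.12, adjusted p = 0.00132 by edgeR's quasi-likelihood test). The junction adhesion gene F11r rose by 1.05 ± 0.12 in CPT against CON. The chemokine gene Cxcl12 and the clotting inhibitor gene Tfpi fell by 1.38 ± 0.08 and 2.92 ± 0.39. The chemokine scavenger gene Ackr1 had the lowest log2 fold change of the list on few estimated counts, with 0, 0 and 5 in AT3, 0, 0 and 1 in CPT, and 26, 19 and 21 in CON. Cells other than endothelium can express Icam1.

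Against CON, markers of stellate cells fell as the endothelial genes did, in both injury groups. Of 16 stellate cell and pericyte markers tested, 14 fell and 2 were not called in CPT against CON, with a median of -2.50. Their sum was 59.0, 77.7 and 58.8 CPM in AT3, 90.8, 87.4 and 99.0 CPM in CPT, and 429, 477 and 410 CPM in CON, and no marker was at 0 in every library. AT3 lay below CPT, and both lay below CON, without overlap. In AT3 against CPT the 33 members had a median of 0.26, whereas the stellate markers had a median of -0.52. Of the 16 markers 3 fell there (Colec11, Rgs5 and Ecm1), beside 2.22% of all genes. The extracellular matrix gene Ecm1 had the highest level of these in CON, with means of 22.0 CPM in AT3, 31.1 CPM in CPT and 195 CPM in CON.

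Macrophages can express the members Stab1, Lyve1, Mrc1 and Fcgr2b. Of 14 Kupffer cell and macrophage markers tested, 8 fell, 1 rose and 5 were not called in CPT against CON, with a median of -0.88. Their sum was 61.9, 68.5 and 70.2 CPM in AT3, 49.8, 54.4 and 54.5 CPM in CPT, and 95.8, 93.3 and 107 CPM in CON. In the authors' TPM it was 39.0, 44.1 and 41.4 in AT3, 26.2, 32.8 and 37.8 in CPT, and 32.4, 38.7 and 30.8 in CON. Both injury groups thus lay below CON in CPM, whereas in TPM CPT overlapped CON and AT3 lay above it. The Kupffer cell markers Clec4f and Timd4 fell with log2 fold changes of -1.37 ± 0.12 and -3.11 ± 0.48 (SE), whereas the complement gene C1qa, at 5.80 CPM in AT3, 4.84 CPM in CPT and 4.79 CPM in CON, was not called. In AT3 against CPT 2 of the 14 rose, the complement receptor gene Vsig4 by 1.24 ± 0.31 and the iron exporter gene Slc40a1 by 0.56 ± 0.09. Over all genes 2.46% rose there. The 9 bile duct markers summed to 32.3 to 36.5 CPM in AT3, 26.7 to 31.2 CPM in CPT and 28.6 to 37.6 CPM in CON, with Cftr at 0 in every library. In TPM these sums were 23.1 to 25.8 in AT3, 16.2 to 21.3 in CPT and 11 to 17.8 in CON, so AT3 lay above CON on that scale only. Of 12 hepatocyte markers 5 rose, 4 fell and 3 were not called in CPT against CON, with a median of 0.07. In AT3 against CPT 4 of them rose, 0 fell and 8 were not called, with a median of 0.31. Their sum was 96600 to 104000 CPM in AT3, 66600 to 84500 CPM in CPT and 75600 to 81400 CPM in CON. The part of these other cells in the endothelial results was not tested.

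**Figure D5:**
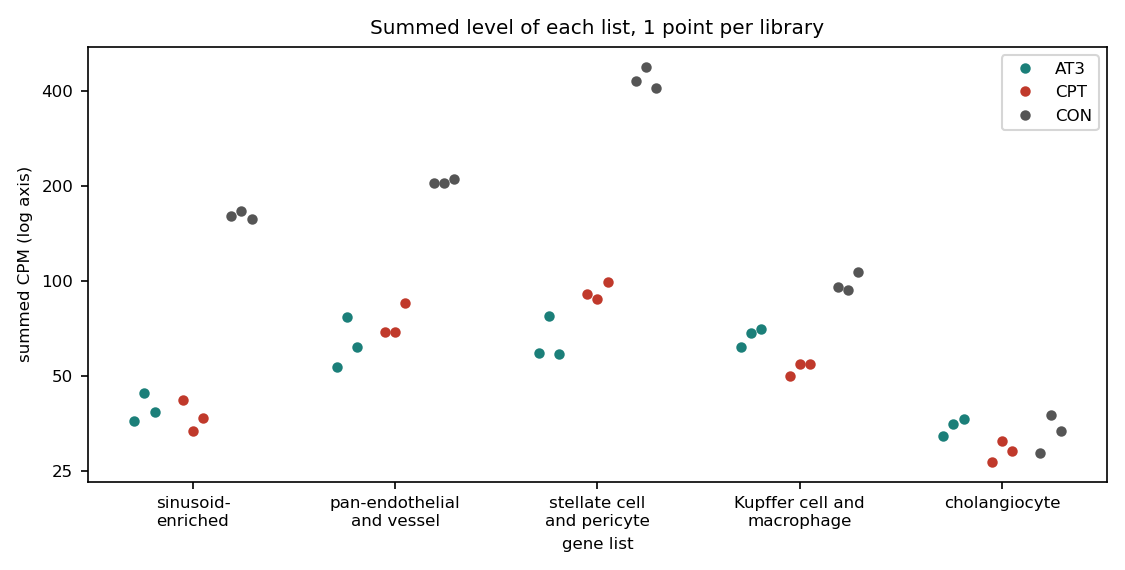
Summed CPM (log axis) of 5 gene lists, with 1 point per library in AT3, CPT and CON from left to right within each list. The endothelial and stellate sums are highest in CON, the stellate sum being 410 to 477 CPM there, and the CON bile duct sums overlap those of both other groups.

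The shorter lists gave mixed values. Of 6 leukocyte markers tested 2 rose, 3 fell and 1 was not called in CPT against CON, with a median log2 fold change of -0.24. The values ran from -4.52 to 2.32, the highest being the myeloid gene Itgam at 2.32 ± 0.40 (SE, log2). Of 2 platelet markers tested, Pf4 rose and Itga2b fell, by 0.98 ± 0.41 and 1.03 ± 0.25. Of 3 lymphatic endothelial markers tested, Ccl21a and Reln fell and Prox1, which hepatocytes express strongly, rose by 0.44 ± 0.12. Reln was also counted among the stellate cell and pericyte markers above. Ccl21a averaged 0.167 CPM in CPT and 9.40 CPM in CON. Of 9 mitochondrially encoded and globin genes 9 fell.

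Long genes fell more often across the transcriptome in CPT against CON, so the members were also read by genomic span. Of all genes tested, 50.3% of those over 100 kb fell, 30.8% of those of 20 to 100 kb and 26.5% of those under 20 kb. Of the members, 8 of 8 over 100 kb fell, 9 of 10 of 20 to 100 kb and 14 of 15 under 20 kb, with medians of -2.52, -2.52 and -2.33. Sox18, which spans 1.80 kb, and Cldn5, which spans 1.42 kb, were among the largest falls, and Nrp1, at 145 kb, had the smallest of those called. Across the 33 genes, Spearman's rho of span with log2 fold change was 0.03, and across 13431 genes it was -0.15, given as descriptions because genes of a library share its depth and scaling.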

How the data were processed

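Per the labels' protocols, total RNA of mouse liver was taken up on columns, and libraries came from a SMARTer mRNA kit. The authors deposited estimated counts per gene with gene symbols and lengths in bases, and TPM values, per the file headers. More than one mouse genome build appears, with no role, in the submitters' processing notes. No aligner, counter or strand setting is given in the sources used here. Overlapping, antisense and near-identical genes can therefore share counts. Over all 57010 genes, zeros included, 7.96% to 9.55% of the estimated counts in a library were not whole, and they were rounded before testing. Only 18044 to 19241 genes a library had a count, so the share among those was larger. The authors' TPM values were used for levels between genes, ratios and alternative tests. Columns of group means by the authors were left out, and columns of samples outside the series numbered 0.

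Genes were tested by quasi-likelihood in edgeR 4.0.16 under R 4.3.3, on TMM-scaled counts that passed filterByExpr, in a single fit of the 9 libraries with a term for each group. P-values were adjusted over 13686 genes by Benjamini-Hochberg, and genes were called under 0.05. TMM factors were 1.05 to 1.13 in AT3, 1.07 to 1.13 in CPT and 0.726 to 0.963 in CON. Standard errors follow from the F statistic. A count of 3 corresponds to 0.0934 to 0.169 CPM. Alternatives were DESeq2 1.42.0, its size factors, no filter, limma 3.58.1 on log2 of TPM plus a pseudocount of 1 or 0.1 (which understates low genes), only the 6 libraries compared, a replicate block, abundant genes left out, and each library left out. The edgeR fit was also run on simulated counts in which few genes changed, so scaling under changes as broad as these was not tested. Within groups, chi-square per degree of freedom was 7.07 to 97.0, so no libraries were duplicates. Gene IDs gave coordinates from GENCODE M21 (GRCm38).

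The 33 genes, the other lists and the tests were chosen with earlier results of these data known. The rule for named genes was the 33, up to 4 genes of each other list with the smallest p, and ligands or partners of a member. Wnt2, Wnt9b, Rspo3 and Thbd were named outside that rule. Efnb1 and Cd300lg, which also fell in CPT against CON and had smaller p there than these, are not described. Cdh13, Ntn4, Kit and Clec1b, with smaller p than Wnt2 and Thbd, also fell there and are not described. The same holds for Bmp6, with smaller p than Thbd. Klf2, Id1, Ackr1, C1qa, Itgam, Klf6, Gata6 and Foxo1 were named after their values were seen. A result of the activation list is not reported here.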

Additional observations from a re-analysis of the deposited data

How the results depend on the processing

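Against CON, the member calls were the same with DESeq2, its size factors, no filter on low counts, abundant genes left out and only the 6 libraries compared. Leaving out 1 library gave 31 to 32 members called in each comparison against CON and 0 to 2 in AT3 against CPT. The settings that moved values most were the TPM scale and, between AT3 and CPT, single libraries. The cause was not tested.

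In fits to TPM, the all-gene median shifted to 0.22 (pseudocount 1) and 0.47 (0.1) in CPT against CON, and to 0.24 and 0.53 in AT3 against CON; without a filter it was 0.02 and 0.03. The calls over all genes at a pseudocount of 1 split into 6579 higher and 1609 lower in CPT against CON, beside 4107 and 4219 on counts, and into 7066 and 1731 in AT3 against CON, beside 4312 and 4501. In CPT against CON the sinusoid-enriched median was -0.94 with a pseudocount of 1, also without a filter, and -1.79 with 0.1. The pan-endothelial median was -0.55, -0.55 and -1.46. In AT3 against CON they were -0.74, -0.74 and -1.33, and -0.47, -0.47 and -1.22. Members called in CPT against CON numbered 27, 26 and 26 (pseudocount 1, 1 without a filter, 0.1), all lower except Lyve1, higher at 0.1. Cdh5 was not called without a filter (adjusted p = 0.117) or at 0.1 (0.0565), nor Erg at 0.1 (0.0683). Esam, Robo4, Plvap and Aqp1 were not called at any of the 3, nor was Nrp1, which turned to 0.13, 0.13 and 0.14.

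In AT3 against CPT, 4 members were called by DESeq2 (Dnase1l3, Nrp1, Flt4 and Plvap), 6 without a filter, 1 with only the 6 libraries compared (in a fit that kept 30 members) and 0 on any TPM scale by limma. All genes called were 641 in edgeR, 821 by DESeq2, 1174 without a filter, and 30, 20 and 33 on the TPM scale. Leaving out a library gave 172 to 1316 of them, and medians of 0.06 to 0.46 for sinusoid-enriched and -0.07 to 0.50 for pan-endothelial genes. The value of -0.07 is without AT3 replicate 2. In AT3 against CON, Emcn lost its call without AT3 replicate 1 or 3 or CON replicate 2 or 3, with adjusted p-values to 0.0882.

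Same-numbered libraries deviated together only weakly if at all (correlations of -0.038 to 0.076), so the numbers were not taken as pairs. For AT3 with CPT, same-numbered pairs gave 0.052, 0.076 and 0.067, and other-numbered pairs -0.058 to -0.018. With the replicate block, 32 members were called in CPT against CON (Stab1 at -0.34, adjusted p = 0.027 by edgeR), 33 in AT3 against CON and 1 in AT3 against CPT.

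Depth limits Emcn, Sox18, Erg, Lyve1, Cldn5 and Vwf, among others, which had few counts in at least 1 group. In CPT, Cldn5 had 8, 11 and 11 estimated counts. Other members with large falls were also low there, such as Kdr (14, 15 and 26) and Flt4 (19, 10 and 18).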
